A study of Mus musculus with 40 samples.

Results

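Brown fat was compared between male C57BL/6 mice that received both Notch ligand blockade and thyroid hormone, and mice that received neither. The comparison was taken from the titles in the study's labels and uses 10 of the 40 mice: 5 given the Jagged antibodies plus hormone for 7 d (numbered 6 to 10) and 5 given the control antibody for 7 d (numbered 1 to 5). All mice received a single intraperitoneal dose of antibody. The treated mice received blocking antibodies to Jag1 and Jag2 at 20 mg/kg each, and the controls an isotype antibody to ragweed pollen at 40 mg/kg. From day 2 the treated mice also received daily intraperitoneal thyroxine (T4, 1 µg per g body weight) and triiodothyronine (T3, 0.05 µg per g) in PBS. Whether mice without hormone received PBS injections was not stated. The age at treatment was 10 to 12 weeks in the design text and 10 to 14 weeks in the protocol. The other 2 groups of 5 mice at 7 d, Jagged antibodies without hormone and control antibody with hormone, locate each gene relative to the single treatments. Bulk RNA from snap-frozen brown adipose tissue was sequenced from each mouse, so each library is 1 animal. The series title places the study's question in the role of Notch signalling in the thyroid for adult homeostasis. The comparison here asks which genes stood at the control level after blockade and hormone together, and which did not.

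Notch is a short-range signal in which a membrane-bound ligand such as Jag1 or Jag2 on one cell activates a Notch receptor on its neighbour, and the cleaved receptor enters the nucleus and switches on Hes and Hey genes. In blood vessels, Jagged ligands and Notch3 maintain the mural cells, the pericytes and smooth muscle cells that wrap the endothelium. Thyroid hormone acts through the nuclear receptors Thra and Thrb, and brown fat, which burns fuel for heat through Ucp1, responds to it both directly and through sympathetic nerves.

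The 5 control libraries held 12217623 to 23985134 counts and the 5 treated libraries 16905015 to 26502813. Composition differed between the groups. The TMM normalization factor was 0.647 to 0.926 in the controls and 1.01 to 1.11 in the treated mice. The slope of log2 expression on log2 gene length was -0.621 to -0.0796 in the controls and 0.0473 to 0.214 in the treated mice. Neither measure overlapped (exact permutation test, two-sided, p = 0.00794, the smallest that 5 against 5 allows, adjusted p = 0.0318 over 20 measures, n = 5 and 5). Control mice 2 and 4 had the lowest factors and slopes. For this reason counts are also given with an offset for gene length and GC content and, as an alternative chosen after the data were seen, without these 2 mice. Skeletal muscle markers varied widely within both groups, with a summed level of 82.3 to 33299 CPM in the controls and 65.8 to 6588 CPM in the treated mice. None of the 23 tested thermogenic identity genes, which mark brown adipocytes, was at 0 in any of the 10 mice. The same held for the pericyte, endothelial and lipid-associated macrophage lists. All tested genes had passed a filter on low counts, so this does not check the tissue label.

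Of 17079 genes tested, 6582 (38.5%) differed between the treated and the control mice (edgeR quasi-likelihood test, Benjamini-Hochberg adjusted p under 0.05), 3057 (17.9%) higher and 3525 (20.6%) lower. Of these, 3588 (21%) differed by at least 2-fold, 1591 (9.32%) higher and 1997 (11.7%) lower. Without control mice 2 and 4 the count fell to 2815 of 17721 tested (15.9%), 1242 (7.01%) higher and 1573 (8.88%) lower. With the length and GC offsets 6128 genes (35.9%) passed the test. Of these 3053 (17.9%) were above and 3075 (18.0%) below control, and 4473 were also called, in the same direction, without the offsets. Gene length moved with the result: the median log2 difference was -0.58 in the shortest of 4 equal length classes of genes and 0.38 in the longest, and 0.16 and -0.01 with the offsets. Its part in single genes was not tested. The reverse question was answered with intervals. For 6169 genes (36.1%) the 95% interval of the log2 difference lay within 1 log2 unit (2-fold) of the control level (44.2% with the offsets), 968 of them with a called difference smaller than that. A further 5296 genes were neither called nor within that margin, so for them neither a difference nor closeness to control was shown. For 4611 of the 17079 genes (27.0%) the values of the treated and the control mice did not overlap. This is the share over all genes for the statements of no overlap between these groups below.

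The single treatments set the scale for these counts. Jagged antibodies without hormone differed from control antibody at 427 genes (2.5%), 207 (1.21%) higher and 220 (1.29%) lower. Hormone given to Jagged antibody mice changed 1622 genes (9.5%), 732 (4.29%) up and 890 (5.21%) down. By limma on log2(FPKM + 1) the split was 717 up and 502 down for this hormone comparison, and 198 higher and 348 lower for Jagged antibodies without hormone. Hormone given to control antibody mice changed 7378 genes (43.2%), 3463 (20.3%) up and 3915 (22.9%) down. That comparison uses the same 5 control mice, and no count without mice 2 and 4 or with the offsets is given for it. Its differences rose with exonic length (Spearman correlation 0.418, against 0.308 for hormone in Jagged antibody mice). The counts 7378 and 1622 therefore do not measure how broadly hormone acted in each arm. These comparisons share mice with the one described here, so their values are set side by side only. With hormone in both arms, the antibodies differed at 194 genes (1.14%), 119 (0.697%) higher and 75 (0.439%) lower. Those last 10 mice share none with the comparison of antibodies without hormone. Of the 207 genes higher with Jagged antibodies alone, 31 were called higher again under hormone and none lower, with a median log2 difference of 0.39 against -0.01 over all genes. Of the 220 genes lower with Jagged antibodies alone, 30 were called lower again and none higher, with a median of -0.49. A test of whether the antibody difference itself changed with hormone called 1 gene (0.00586%), Eva1a, and 2103 at an unadjusted p under 0.05 (edgeR quasi-likelihood test). Eva1a, a membrane protein linked to autophagy, stood at 2.70 ± 0.61 log2 CPM (SD, n = 5) in the controls, 2.01 ± 0.37 with Jagged antibodies, 1.56 ± 0.26 with hormone and 2.87 ± 0.52 with both.

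**Figure D1:**
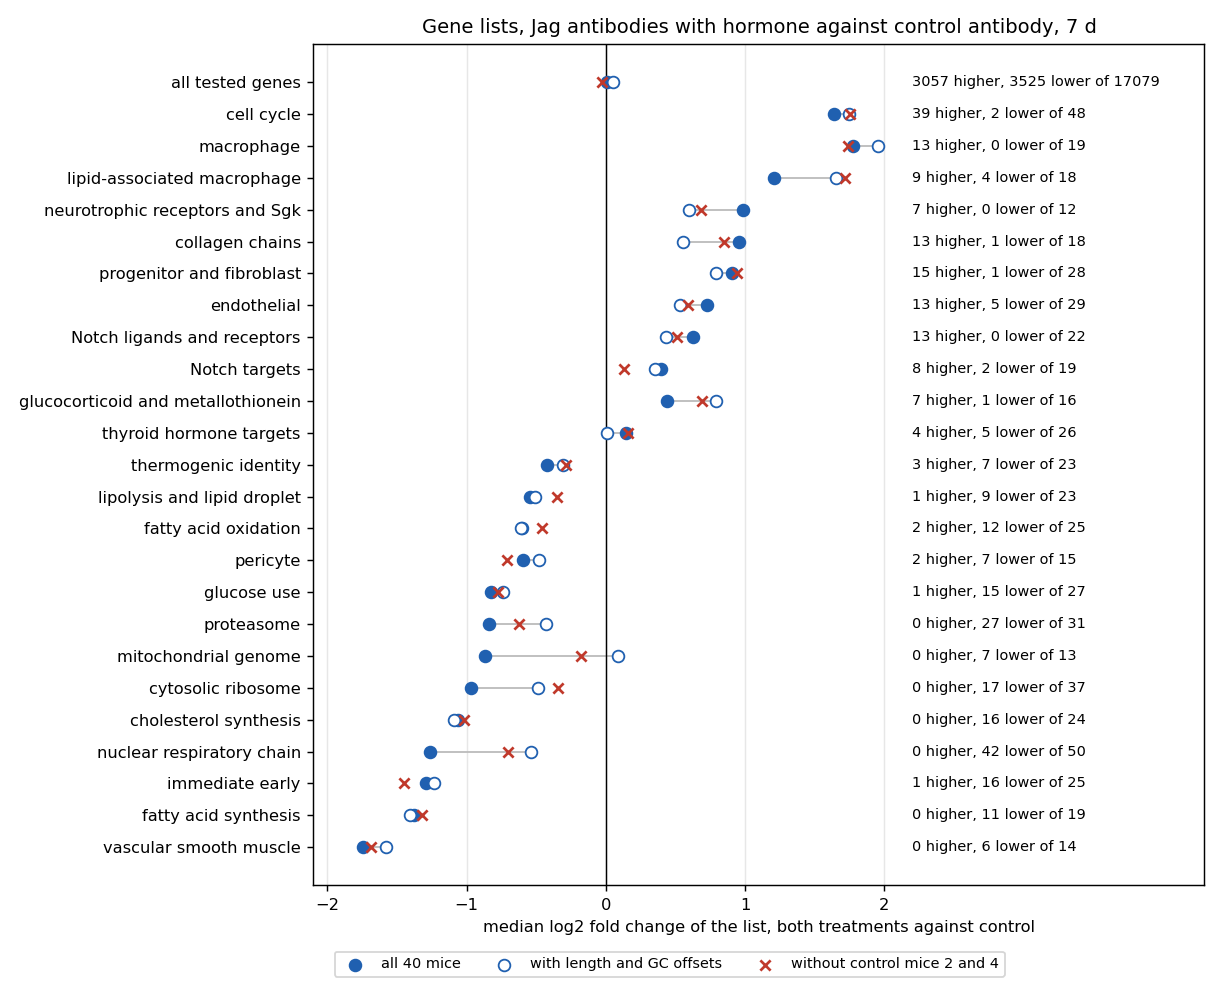
Median log2 difference of each gene list between mice given Jagged antibodies with hormone and control mice. Filled points use all 40 mice in the fit, open points add length and GC offsets, and crosses leave out control mice 2 and 4. Cell cycle (1.64) and macrophage (1.78) genes lie to the right of 0, and immediate early (-1.29) and fatty acid synthesis (-1.38) genes to the left.

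A first set of genes fell with Jagged antibodies alone and was back near control with hormone. By the conditions set for it (called lower or higher with Jagged antibodies, called the opposite way by hormone among Jagged antibody mice, and an interval within 1 log2 unit of control with both), 26 genes qualified, out of 47 that antibody and hormone moved in opposite ways. The conditions use the same mice as the values below, so the values are a description. Postn encodes periostin, a matrix protein of connective tissue and injury. Its level in log2 CPM (counts scaled to library size) was 7.17, 7.00, 7.58, 6.80 and 6.76 in the control mice, 4.70, 5.51, 4.87, 5.34 and 5.70 in mice with Jagged antibodies alone, and 6.30, 7.35, 6.57, 7.12 and 6.14 with both treatments. The Jagged antibody mice lay below every control mouse, and the mice with both treatments overlapped the controls. The remaining log2 difference from control was -0.33 (95% interval -0.84 to 0.18), against -1.82 with Jagged antibodies alone. With the offsets it was -0.70 and was called (edgeR adjusted p = 0.0389). Hormone in control antibody mice also raised Postn, by 0.78 (edgeR adjusted p = 0.0128). Under hormone, Jagged against control antibody was -1.10 (edgeR adjusted p = 0.0198). Postn was thus near the control level while an antibody difference remained.

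Npr3, the clearance receptor for natriuretic peptides, which limits their lipolytic signal in fat, fell and came back in the same way. It stood at 8.11, 7.56, 5.74, 6.25 and 6.92 log2 CPM in the controls, 5.86, 5.89, 5.28, 5.12 and 4.30 with Jagged antibodies and 6.84, 6.67, 8.24, 7.17 and 7.08 with both. The residual log2 difference was 0.16 (-0.55 to 0.87). Tmem45b, a transmembrane protein, was at 9.51, 8.90, 7.86, 9.14 and 8.50 in the controls, 6.98, 7.18, 5.87, 7.73 and 7.37 with Jagged antibodies and 8.98, 9.37, 9.01, 8.58 and 9.66 with both, and all 5 mice with both treatments lay above all 5 with antibodies alone. The other named genes of this kind were Tlcd2, Ajuba, Ndn, Nostrin and Rian. Their log2 differences were between -1.36 (Tlcd2) and -1.09 (Rian) with Jagged antibodies alone, and between -0.34 (Ndn) and 0.25 (Rian) with both. Hormone in control antibody mice raised Rian by 1.16 (edgeR adjusted p = 0.000622). It called none of Npr3, Tmem45b, Tlcd2, Ajuba, Ndn and Nostrin (-0.07 to 0.49). Under hormone the antibody difference of Rian was -0.91 (not called). Ndn encodes necdin, which restrains adipocyte formation, and Rian is a maternally expressed imprinted noncoding RNA.

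Sparc, a collagen-binding matrix protein, was also back near the control level: its log2 difference was -0.78 with Jagged antibodies alone and 0.15 (95% interval -0.24 to 0.54) with both. The antibody difference of Sparc changed by only -0.05 ± 0.27 SE with hormone, not called in the test of the interaction. Col3a1 and Scd1 moved back without meeting the margin. Col3a1, the main chain of type III collagen, stood at 9.33, 8.29, 8.22, 8.95 and 8.20 log2 CPM in the controls, 6.96, 7.12, 5.56, 5.90 and 7.23 with Jagged antibodies and 9.22, 10.16, 8.32, 9.68 and 9.44 with both. All Jagged antibody mice were below all controls, and 3 of the 5 mice with both treatments exceeded the highest control. The log2 difference with both was 0.81 (0.10 to 1.51), which did not pass the test (edgeR adjusted p = 0.0647). Scd1, the desaturase that makes monounsaturated fatty acids, was at 15.81, 14.95, 15.44, 14.33 and 15.00 in the controls, 12.53, 14.44, 11.74, 14.21 and 12.95 with Jagged antibodies and 14.38, 14.69, 15.30, 16.03 and 13.95 with both, a residual of -0.13 (-1.05 to 0.79).

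**Figure D2:**
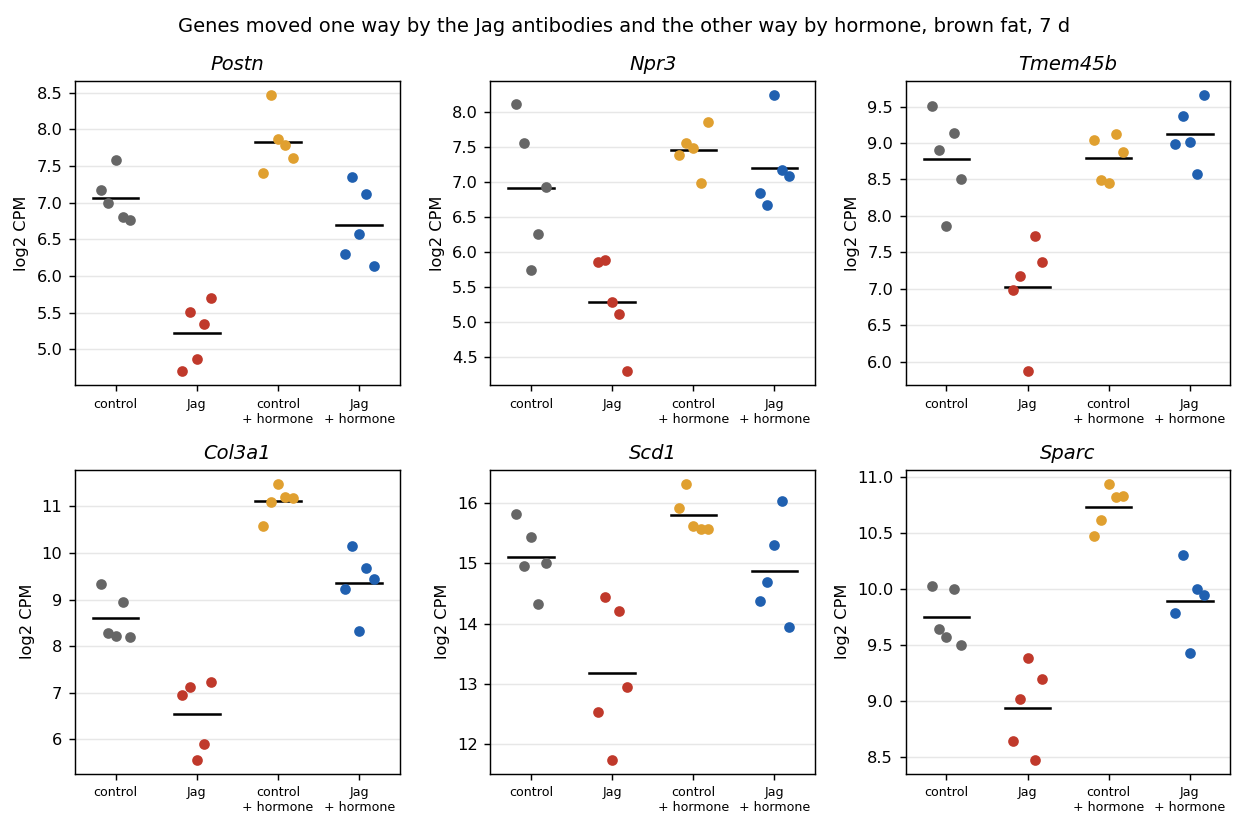
Expression (log2 CPM) of 6 genes in each of the 20 mice at 7 d; points are mice and black lines are group means. Postn, Npr3, Tmem45b, Col3a1, Scd1 and Sparc are low with Jagged antibodies alone, and mice with both treatments overlap the controls.

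A second set did not return. By the conditions set for it (called the same way with both treatments against control, with Jagged antibodies alone, and with Jagged antibodies under hormone), 47 genes qualified, and their 7 d values are again a description. Of the 6 with the largest falls, Rgs5, Ndufa4l2 and Cox4i2 are known from mural cells, and H2-Q10, Fer1l6 and Dhrs3 are described after them. Rgs5, a regulator of G-protein signalling that marks pericytes, was at 9.03, 8.71, 9.35, 7.68 and 8.56 log2 CPM in the controls and 6.07, 6.20, 6.63, 6.63 and 6.48 in mice with both treatments. Jagged antibodies alone gave 5.99, 6.25, 6.93, 6.17 and 6.46, and control antibody with hormone 8.27 to 9.12. The Jagged antibody groups lay together below every mouse of the control antibody groups, whether or not hormone was given. Its log2 difference from control was -2.35 with both treatments and -2.37 with antibodies alone. Mice collected at 5 d, none of which is in the 7 d groups, gave -1.48 for Jagged against control antibody (edgeR adjusted p = 0.0433, with a muscle score as covariate).

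Ndufa4l2, a mitochondrial subunit-like protein that pericytes express, followed Rgs5. It was at 2.47, 3.42, 3.42, 3.95 and 3.09 in the controls, 0.83, 1.53, 1.67, 1.44 and 1.33 with antibodies alone and 0.37, 1.56, 1.18, 1.47 and 1.69 with both. At 5 d its difference was -1.52 (edgeR adjusted p = 0.0239). Cox4i2, an alternative subunit of cytochrome oxidase used by pericytes and lung, fell from 2.07, 2.70, 2.25, 3.78 and 2.81 to -0.22, 0.56, 0.56, 0.30 and 1.17 with both treatments. Hormone in control antibody mice also lowered Cox4i2 (log2 difference -0.89, edgeR adjusted p = 0.0212). Every mouse with both treatments was below every control for these 3 genes, and hormone moved none of them among Jagged antibody mice (log2 differences 0.02, -0.06 and 0.01, none called). With the offsets the difference from control was -2.37 for Rgs5, but shrank to -1.17 for Ndufa4l2 and -1.42 for Cox4i2, all still called. Ndufa4l2 and Cox4i2 are short genes (1095 and 788 bases of exon) at low levels.

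Of the 15 pericyte genes tested, 7 were lower with both treatments, 2 were higher and 6 were not called, with a median log2 difference of -0.59 against 0.01 over all genes. Without control mice 2 and 4, 5 were lower and 2 higher. With Jagged antibodies alone 7 were lower and none higher (median -1.11). Beside Rgs5, Ndufa4l2 and Cox4i2, the called genes were Rgs4, a relative of Rgs5 (log2 difference -1.12 ± 0.24 SE, edgeR adjusted p = 0.000537), Higd1b (-1.31), Kcnj8 (-1.08) and Vtn (-0.92). The Higd1b and Vtn calls were lost with the offsets (-0.44 and -0.47), and the Higd1b and Kcnj8 calls without control mice 2 and 4 (-0.96 and -0.71). Anpep (1.59) and Pdgfrb (0.81), which fibroblasts or myeloid cells also carry, were the members that rose. Notch3, the mural Notch receptor, was at 2.07 to 3.66 log2 CPM with antibodies alone and 3.44 to 4.50 with both, against 3.36 to 4.83 in the controls, a log2 difference of -0.04 (95% interval -0.75 to 0.66). The summed pericyte markers were at 735 to 1333 CPM in the controls and 439 to 679 CPM in the treated mice (exact permutation test, two-sided, p = 0.00794, adjusted p = 0.0318, n = 5 and 5), and none was at 0 in any mouse. Rgs5, named above for its fall in these same mice, carries much of this sum. The test therefore largely repeats Rgs5 and says little about the rest of the list. In bulk tissue, fewer cells of a type and less RNA per cell cannot be told apart.

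Genes outside the mural set also stayed away from control. Igfbp3, which binds insulin-like growth factors, was at 2.60, 3.55, 3.93, 4.08 and 3.93 log2 CPM in the controls, 6.77, 5.47, 5.46, 5.78 and 5.26 with antibodies alone and 6.90, 6.00, 7.14, 6.38 and 6.02 with both. All mice of both Jagged antibody groups exceeded all control mice. At 5 d the difference was already 1.39 (edgeR adjusted p = 0.0274). Ivns1abp, an actin-binding Kelch protein, differed by 1.25 with antibodies alone and 2.59 with both, after 1.61 at 5 d (edgeR adjusted p = 0.0239). Fbxo31, a ubiquitin ligase subunit, differed by 1.57 and 2.77, and Map3k6, a stress kinase, by 1.65 and 2.73. For these 3 genes hormone and antibody each moved expression the same way: hormone in control antibody mice gave 1.27, 1.12 and 1.53, all called. Slc7a8, a large neutral amino acid transporter that also carries thyroid hormone, did likewise. It stood at 1.57, 0.75, 1.88, 2.74 and 1.88 log2 CPM in the controls, 4.76, 3.99, 4.48, 3.62 and 4.21 with antibodies alone and 6.97, 6.46, 5.79, 4.11 and 7.37 with both.

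Among genes that stayed low, H2-Q10, a nonclassical MHC class I gene, was at 8.38, 8.87, 8.72, 8.78 and 8.46 log2 CPM in the controls, 6.15, 7.17, 6.05, 7.11 and 6.72 with antibodies alone and 5.31, 5.01, 5.64, 6.25 and 5.14 with both. All mice of both Jagged antibody groups were below every control, and the 5 d difference was -1.76 (edgeR adjusted p = 0.00207). Its near-identical neighbours in the H2-Q cluster make the assignment of its reads uncertain. Fer1l6, a dysferlin relative, was -2.37 below control with both treatments and -3.01 at 5 d (edgeR adjusted p = 0.00473). Dhrs3, a retinaldehyde reductase, differed by -1.74 with both treatments and -0.75 with antibodies alone. Hormone in control antibody mice also lowered H2-Q10 (-1.75) and Dhrs3 (-1.12, edgeR adjusted p = 1.25e-05 and 8.35e-06), but not Fer1l6 (0.04, not called). Among Jagged antibody mice hormone gave -1.17 for H2-Q10 and -0.99 for Dhrs3, both called, and 0.37 for Fer1l6 (not called).

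**Figure D3:**
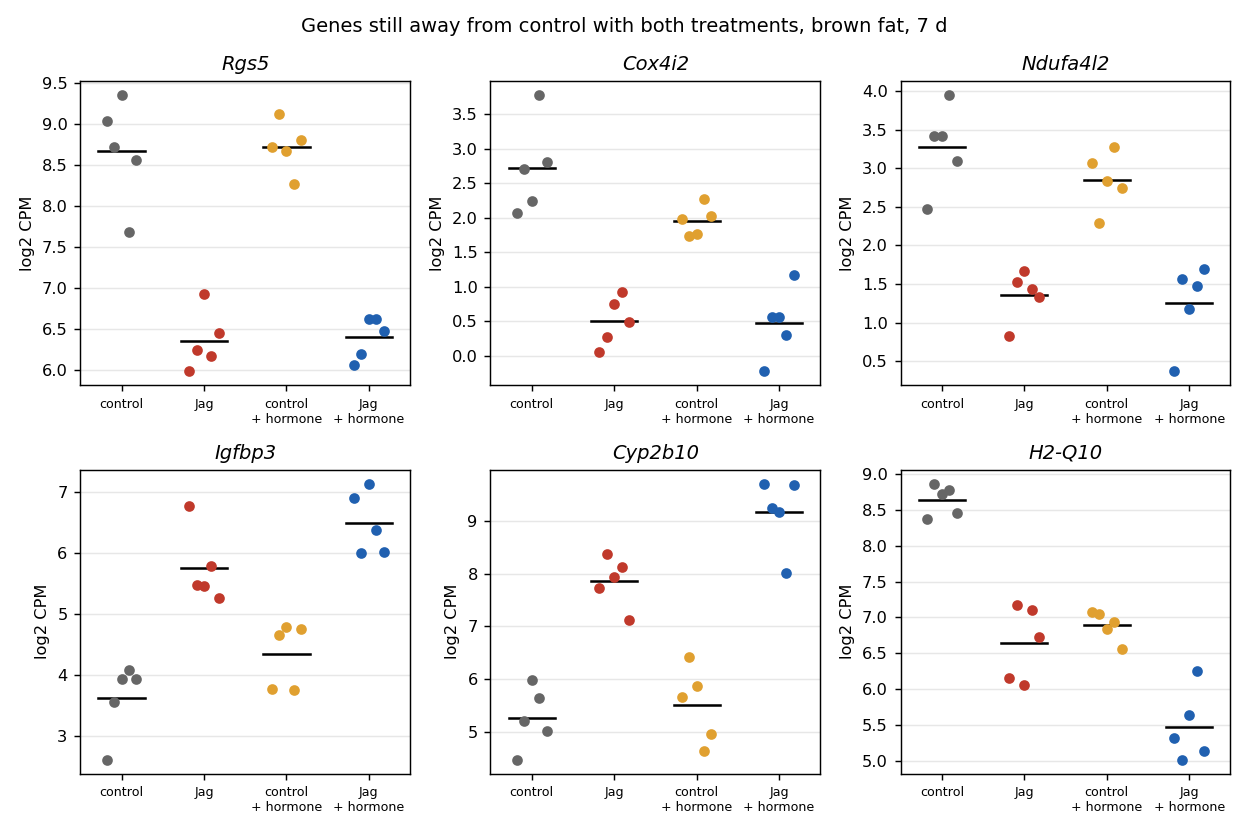
Expression (log2 CPM) of 6 genes in each of the 20 mice at 7 d; points are mice and black lines are group means. Rgs5, Cox4i2, Ndufa4l2 and H2-Q10 are lower, and Igfbp3 and Cyp2b10 higher, in mice with both treatments than in control mice, with no overlap.

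Several genes with the largest Jagged antibody differences were also high with both treatments. Cyp2b10, a cytochrome P450 induced through the receptor CAR, was at 4.47, 5.20, 5.99, 5.64 and 5.02 log2 CPM in the controls, 7.73, 8.38, 7.94, 8.13 and 7.12 with antibodies alone and 9.71, 9.24, 9.18, 8.02 and 9.69 with both. Its log2 difference with both was 3.93, and hormone in control antibody mice gave 0.30. Related Cyp2b copies could share its reads. Cbs, which makes cystathionine from homocysteine, rose from -0.25, 0.09, 0.43, 0.31 and -1.38 to 3.27, 1.64, 2.64, 1.08 and 2.41 without overlap (log2 difference 2.58 ± 0.54 SE, edgeR adjusted p = 0.00047). Thbs2, a matrix thrombospondin, rose by 2.53 (edgeR adjusted p = 0.000177) and was 2.59 above control with antibodies alone and 2.73 with hormone alone (both called); antibodies under hormone gave -0.20 (not called). Cxcl13, the chemokine that draws B cells, was at 1.65, -0.04, 0.49, 0.69 and 1.04 in the controls and 4.84, 3.36, 3.10, 3.30 and 0.76 with both, and mouse 10 lay inside the control range. Its call (log2 difference 2.72, edgeR adjusted p = 0.0149) was lost without treated mouse 6 (2.08) and without control mice 2 and 4 (2.47). Among the genes lower with antibodies alone, 3 others were lower with both: Hephl1, a copper ferroxidase (-4.47 ± 0.83 SE), Ncan, a chondroitin sulfate proteoglycan (-4.24 ± 0.60), and Kcng4, a potassium channel modifier (-3.05 ± 0.80), each below every control mouse (edgeR adjusted p = 0.000135, 4.28e-06 and 0.00343).

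Fatty acid synthesis genes were lower in most of the list. Of 19 tested, 11 were lower with both treatments, none was higher, and the median log2 difference was -1.38. Without control mice 2 and 4, 8 were lower and none higher. With Jagged antibodies alone 5 were lower and none higher. Slc25a1, which exports citrate from mitochondria for lipogenesis, was at 10.48, 11.14, 10.06, 10.43 and 10.73 log2 CPM in the controls and 7.27, 6.67, 7.25, 8.53 and 6.41 with both treatments. The groups did not overlap, and the log2 difference was -3.18 ± 0.52 SE (edgeR adjusted p = 2.88e-05). Acaca, the carboxylase that commits acetyl-CoA to fatty acids, went from 10.69, 10.99, 10.74, 10.22 and 10.72 to 7.84, 7.76, 8.89, 10.18 and 7.09, a difference of -1.90 ± 0.56 (edgeR adjusted p = 0.00784). Mouse 9 lay just under the lowest control, and the other 4 were more than 1 log2 unit lower. With antibodies alone Slc25a1 and Acaca differed by -1.44 and -1.33, neither called.

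The NADPH-producing enzymes Me1 (-2.20 ± 0.48 SE) and Pgd (-1.68 ± 0.36) and the acetyl-CoA synthetase Acss2 (-2.06 ± 0.49) also fell, with no overlap between groups (edgeR adjusted p = 0.000737, 0.000542 and 0.00146). With Jagged antibodies alone these 3 differed by -1.59, -1.27 and -1.96, of which Pgd and Acss2 passed the test. Acly, which splits citrate to acetyl-CoA, was called (-1.97, edgeR adjusted p = 0.0324), but the call was lost without any 1 of treated mice 6, 7, 8 or 10, of control mice 1 or 2, and without control mice 2 and 4 together. Fasn, fatty acid synthase, was at 13.60, 14.07, 14.05, 13.70 and 14.01 in the controls and 10.81, 10.57, 12.33, 13.94 and 9.92 with both treatments. Mouse 9 was inside the control range and the other 4 were below it; the log2 difference of -1.60 missed the threshold (edgeR adjusted p = 0.092), and was -2.23 and called with the offsets. Scd1 and Fads2 (-0.58, 95% interval -1.23 to 0.08), 2 desaturases, were not called, while Elovl5, a fatty acid elongase, was lower by -1.03 (edgeR adjusted p = 0.00496). Srebf1, which encodes the lipogenic transcription factor SREBP1, fell by 1.16 (edgeR adjusted p = 0.00485), against -0.03 with antibodies alone and -0.83 with hormone alone.

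Cholesterol synthesis genes were lower at 16 of 24, with none higher and a median of -1.06, and at 14 without control mice 2 and 4. With Jagged antibodies alone 5 were lower, and with hormone alone 12. Insig1, which holds the SREBP complex in the endoplasmic reticulum and is itself an SREBP target, was at 8.99, 9.54, 8.23, 7.78 and 8.61 log2 CPM in the controls, 6.30, 8.36, 7.25, 8.27 and 7.48 with antibodies alone and 6.29, 5.41, 5.93, 6.67 and 5.85 with both. Every mouse with both treatments was below every control mouse (log2 difference -2.67 ± 0.41 SE, edgeR adjusted p = 1.33e-05). The pathway enzymes Nsdhl (-1.95) and Sqle (-1.53) also fell without overlap (edgeR adjusted p = 1.95e-05 and 0.00417).

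Of 27 glucose use genes, 15 were lower and 1 was higher (median -0.83), and 11 and none without control mice 2 and 4. Pkm, pyruvate kinase, fell by 1.22 ± 0.19 SE (edgeR adjusted p = 1.9e-05), with 9.12, 9.66, 9.41, 9.53 and 9.65 log2 CPM in the controls against 7.98, 8.04, 8.32, 8.67 and 8.23. Slc2a5, a fructose transporter, was at 7.10, 7.45, 5.59, 6.29 and 6.51 in the controls and 0.37, 0.38, 3.28, 5.02 and -0.40 with both. All 5 treated mice were lower, but they spanned over 5 log2 units, and the call (-3.54, edgeR adjusted p = 0.0173) was lost without control mice 2 and 4 (-3.37). Lipolysis and lipid droplet genes were lower at 9 of 23 and higher at 1.

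The thermogenic identity list, which holds genes that mark brown adipocytes, was lower at 7 of 23 and higher at 3 (median -0.42), against 20.6% and 17.9% of all genes. It was lower at 5 and higher at 2 without control mice 2 and 4. Its summed level was 16069 to 46715 CPM in the controls and 8400 to 12077 CPM in the treated mice (exact permutation test, two-sided, p = 0.00794, adjusted p = 0.0318, n = 5 and 5). Control mice 4 and 2 had the highest sums (46715 and 38960 CPM), and the other controls were at 16069 to 23638 CPM. Ucp1 carries a large part of this sum, which was not recomputed with the offsets. Ucp1, the uncoupling protein, was at 12.80, 14.38, 13.40, 14.29 and 13.57 log2 CPM in the controls, 11.44 to 12.43 with hormone alone and 11.73, 12.61, 12.12, 12.15 and 12.43 with both; antibodies alone gave a log2 difference of -0.76 (not called). All mice with both treatments were below the lowest control, by a log2 difference of -1.56 ± 0.41 SE (edgeR adjusted p = 0.00359). The call was lost with the offsets (-0.90) and without control mice 2 and 4 (-1.07).

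Cidea, a lipid droplet protein of brown adipocytes, fell by 1.88 ± 0.38 SE and Cox8b, a cytochrome oxidase subunit of brown fat and muscle, by 2.42 ± 0.48 (edgeR adjusted p = 0.000284 and 0.000296). With the offsets they were -1.10 and -1.07, both still called. Elovl3, the cold-induced elongase of brown fat, went from 7.52, 8.94, 8.68, 8.66 and 8.46 to 4.72, 4.83, 4.98, 5.40 and 2.86 log2 CPM, with every treated mouse lower (log2 difference -3.76 ± 0.89, edgeR adjusted p = 0.00145). In contrast Prdm16, the brown fat coregulator, differed by 0.17 (95% interval -0.48 to 0.81), and Zic1, a brown fat lineage marker, was higher by 1.25 (edgeR adjusted p = 0.0165). Ppara, the fatty acid receptor, was higher by 1.43 (edgeR adjusted p = 0.00754). Ppargc1a, the mitochondrial coactivator, differed by 0.85 (0.12 to 1.58) and was not called.

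Adrb3, the adrenergic receptor through which sympathetic nerves drive brown fat, was at 8.92, 8.56, 8.66, 8.78 and 8.79 log2 CPM in the controls, 7.73, 7.95, 7.31, 7.66 and 6.62 with hormone alone and 5.57, 4.39, 4.50, 5.92 and 4.28 with both. Every mouse with both treatments was below every mouse of the other 3 groups, and the difference from control was -3.65 ± 0.39 SE (edgeR adjusted p = 6.94e-08). Jagged antibodies alone gave -0.26 (not called). Hormone changed it by -1.22 in control antibody mice and by -3.40 in Jagged antibody mice. The difference between these was not called in the test of the interaction.

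The thyroid hormone list was called at near the shares over all genes tested. Of its 26 tested targets, receptors and transporters, 4 were higher and 5 lower (median 0.14), against 17.9% higher and 20.6% lower over all genes. The counts were 3 and 3 with the offsets, and 1 and 3 without control mice 2 and 4. Hr, a corepressor that is a direct hormone target, was at 4.60, 3.65, 4.17, 4.18 and 4.80 log2 CPM in the controls, 4.23, 2.78, 4.03, 2.54 and 2.96 with antibodies alone and 5.02, 5.30, 5.86, 5.35 and 5.33 with both. The mice with both treatments exceeded every mouse of the other 2 groups (log2 difference 1.07 ± 0.29 SE, edgeR adjusted p = 0.00396). Hr was -1.21 lower than in control antibody mice given the same hormone (edgeR adjusted p = 0.0239), and its call against control was lost without control mice 2 and 4 (0.84). Klf9, a hormone-induced and glucocorticoid-induced transcription factor, was higher by 1.94 ± 0.34 (edgeR adjusted p = 8.28e-05). Fgf21, a hormone of energy balance, was lower by -4.31 (edgeR adjusted p = 0.00012), from 0.93, 2.60, -0.86, 0.69 and 1.45 log2 CPM to -3.37, -1.89, -1.97, -1.84 and -2.72. Levels this low rest on few reads, so the size of the Fgf21 fall is uncertain. The receptors Thra (-0.42, 95% interval -0.85 to -0.00) and Thrb (0.74, 0.08 to 1.41) and the activating deiodinase Dio2 (-0.75, -2.04 to 0.54) were not called. The thyroid response half-site AGGTCA, searched on both strands of the 250 bases before each RefSeq start, was in 5 of 29 promoters of these genes (17.2%) and in 14% of all 32841 promoters. The DR4 element, a direct repeat of that half-site with 4 bases between, was in 0 of 29 and 0.0152% of all.

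Oxidative genes were low as a group in the unadjusted libraries. Of 50 nuclear genes of the respiratory chain, 42 were lower and none higher (median -1.26); with the offsets 27 were lower (median -0.53), and without control mice 2 and 4 only 7 were (median -0.70). The 13 mitochondrial genome transcripts were lower at 7, but with the offsets 4 were higher and none lower. Fatty acid oxidation genes were lower at 12 of 25 and higher at 2, and at 1 and 1 without control mice 2 and 4. Proteasome genes were lower at 27 of 31 (21 with the offsets, 9 without the 2 control mice), and cytosolic ribosome genes at 17 of 37 (7 lower and 1 higher with the offsets, none without the 2 control mice). Hormone alone lowered 46 of the nuclear respiratory chain genes (median -1.61) and 10 of the mitochondrial genome transcripts. It also lowered 15 fatty acid oxidation genes (3 rose), 25 proteasome genes and 27 ribosome genes. Jagged antibodies under hormone called none in any of these lists. The median exonic length was 1950 bases for the nuclear respiratory chain genes, 1830 for the ribosome genes and 2808 for the proteasome genes, against 3810 for all genes tested, so the length slope described above moves with these lists. Its part in their values was not tested.

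**Figure D4:**
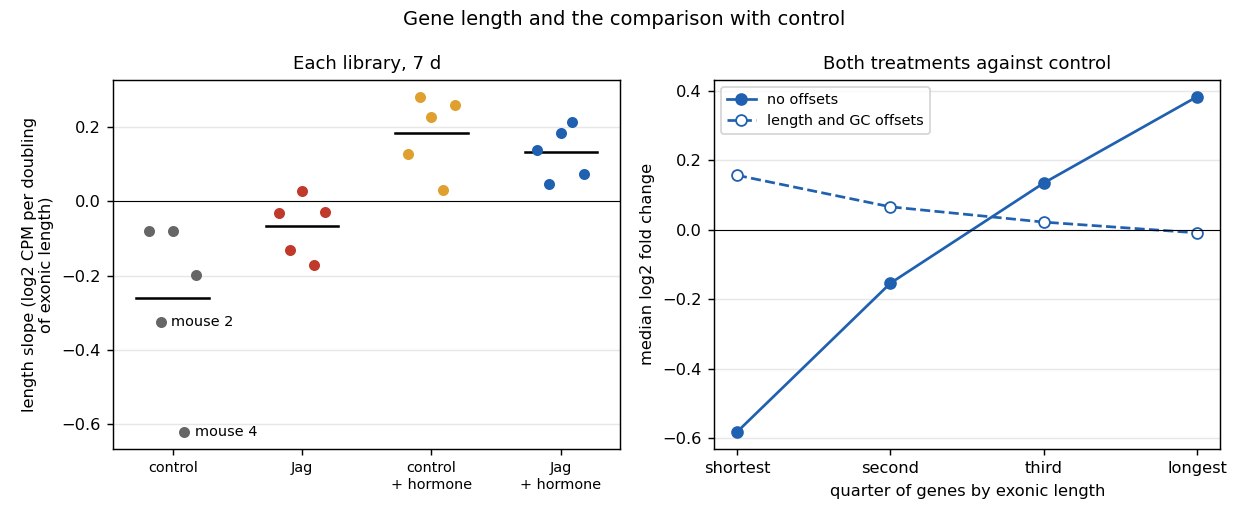
Gene length and the difference between mice with both treatments and control mice. Short genes are lower and long genes higher before the length and GC offsets (class medians -0.58 to 0.38 log2), and the trend is nearly flat with them (0.16 to -0.01).

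Cell cycle genes were mostly higher. Of 48 tested, 39 were higher and 2 lower, with a median log2 difference of 1.64 against 0.01 over all genes; 30 were higher and none lower without control mice 2 and 4. Jagged antibodies alone called none (median 0.17), and hormone alone raised 43 (median 2.73). The promoters of 3 of these genes are printed for their motifs: Ccnb2, the cyclin that carries cells into mitosis, Cdk1, its kinase partner, and Top2a, the topoisomerase that untangles chromosomes. Each is the 250 bases before a RefSeq start on the minus strand (GRCm38.p6, chr9:70421555-70421804, chr10:69352913-69353162 and chr11:99024190-99024439). Capitals mark CCAAT and the cell cycle homology sequence TTTGAA on either strand.
Ccnb2: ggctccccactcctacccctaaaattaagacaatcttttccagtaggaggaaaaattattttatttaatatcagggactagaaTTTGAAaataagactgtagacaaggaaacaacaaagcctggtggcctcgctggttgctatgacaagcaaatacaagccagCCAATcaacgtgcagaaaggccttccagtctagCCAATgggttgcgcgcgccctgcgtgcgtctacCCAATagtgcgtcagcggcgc
Cdk1: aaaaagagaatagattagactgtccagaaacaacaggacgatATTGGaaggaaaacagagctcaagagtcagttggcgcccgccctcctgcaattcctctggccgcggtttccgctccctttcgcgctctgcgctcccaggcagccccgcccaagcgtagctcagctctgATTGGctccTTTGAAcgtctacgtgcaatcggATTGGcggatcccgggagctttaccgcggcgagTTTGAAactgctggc
Top2a: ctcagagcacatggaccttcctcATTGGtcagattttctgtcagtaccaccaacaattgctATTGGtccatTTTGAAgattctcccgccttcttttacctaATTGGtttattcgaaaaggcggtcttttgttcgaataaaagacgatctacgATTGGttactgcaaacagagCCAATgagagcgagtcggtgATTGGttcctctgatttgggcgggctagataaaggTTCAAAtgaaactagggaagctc
CCAAT, the NF-Y box, was in 34 of 45 cell cycle promoters (75.6%) and in 33.9% of all promoters. TTTGAA was in 12 of 45 (26.7%) and in 16% of all. The 3 printed promoters hold 3, 3 and 6 CCAAT matches and 1, 2 and 2 TTTGAA matches.

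Ccnb2 was at -0.79, -0.68, -1.01, -1.07 and -1.80 log2 CPM in the controls and 0.92, 2.20, 0.21, 1.63 and 0.61 with both treatments, and Cdk1 at 0.40, 0.41, -0.59, -0.02 and -0.38 and 0.88, 3.47, 1.07, 2.67 and 1.90. Every treated mouse was above every control for both genes, and treated mice 7 and 9 were the highest. Top2a rose by 3.43 ± 0.49 SE, Ccnb2 by 2.58 ± 0.46 and Cdk1 by 2.43 ± 0.51 (edgeR adjusted p = 4.31e-06, 9.58e-05 and 0.000464). Mki67, the classical marker of dividing cells, was at 1.52, 0.41, 1.06, -1.52 and -0.38 log2 CPM in the controls, 1.64, 0.21, -0.14, -0.23 and 1.09 with antibodies alone, 4.79, 5.12, 5.67, 5.59 and 6.18 with hormone alone and 3.09, 4.85, 2.56, 4.58 and 3.60 with both. It was 3.46 above control (edgeR adjusted p = 1.34e-05), and, but for mouse 7, the mice given both treatments were below every mouse given hormone alone (-1.56, edgeR adjusted p = 0.105, not called).

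Macrophage genes rose with them. Of 19 tested, 13 were higher and none lower (median 1.78), and 9 without control mice 2 and 4. Hormone alone raised 14 (median 2.28), and Jagged antibodies alone called none (median 0.64). Jagged antibodies under hormone also called none (median -0.32). The summed level was 256 to 595 CPM in the controls and 742 to 2930 CPM in the treated mice (exact permutation test, two-sided, p = 0.00794, adjusted p = 0.0318, n = 5 and 5). No marker was at 0 in every mouse, and Timd4 was at 0 in some mice of both groups. Adgre1, which encodes the macrophage antigen F4/80, was at 3.46, 2.17, 3.06, 3.39 and 2.14 log2 CPM in the controls and 5.08, 6.67, 4.28, 5.68 and 5.08 with both treatments. All treated mice were higher, with mouse 7 the highest, as for Csf1r, the growth factor receptor of macrophages (2.02 ± 0.41 SE), and Mrc1, the mannose receptor (2.47 ± 0.52; edgeR adjusted p = 0.000445, 0.000381 and 0.000489). Ccr2, the receptor that brings monocytes from blood, was higher by 2.38 (edgeR adjusted p = 0.00245). Whether the cell cycle genes were read from macrophages was not tested.

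Genes of lipid-associated macrophages were split, 9 of 18 higher and 4 lower (6 and 4 without control mice 2 and 4). Gpnmb, a lysosomal glycoprotein, was at 3.19, 2.42, 2.39, 3.52 and 2.41 log2 CPM in the controls, 7.25, 4.78, 4.36, 4.78 and 4.52 with antibodies alone and 6.01, 7.42, 5.63, 6.06 and 5.43 with both. Hormone alone gave 5.08 to 7.68, so each of the 3 treated groups lay above the controls, with log2 differences of 2.81 with antibodies, 3.48 with hormone and 3.46 with both. Antibodies under hormone gave -0.02 (not called). Trem2, the lipid-sensing receptor, was higher by 2.70 (edgeR adjusted p = 0.0047). Adam8, Ms4a6c and Cd84, which myeloid cells express, were among the largest rises. Adam8, a metalloprotease, differed by 4.27 ± 0.86 SE, Ms4a6c, a membrane protein, by 3.47 ± 0.72 and Cd84, an adhesion receptor, by 3.43 ± 0.79, each with no overlap (edgeR adjusted p = 0.000349, 0.000425 and 0.00111). Hormone alone gave 4.62, 3.78 and 3.53 for these genes, all called. Antibodies under hormone gave -0.35, -0.31 and -0.10, none called. Lymphocyte genes were mostly not called: 3 of 19 were higher, all known from natural killer cells. These were Ncr1 (3.72), Gzma (3.27) and Klrb1c (2.72), at low levels (edgeR adjusted p = 0.000256, 0.000449 and 0.00117), and Klrb1c has close relatives that could share its reads. Cd3e, part of the T cell receptor complex, was at -2.44 to -1.62 log2 CPM in the controls and -2.73 to -0.90 with both.

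Interferon response genes were called at 2 of 26, both lower, although hormone alone raised 19 and lowered 2. Under hormone, Jagged antibody mice had a median log2 difference of -1.52 from control antibody mice over this list, with no gene called. The 2 lower genes were Ifi27l2a and Ifi27, small interferon-induced membrane proteins. Ifi27l2a was at 9.75, 9.84, 8.51, 11.09 and 9.17 log2 CPM in the controls, 10.23, 9.59, 10.12, 9.92 and 10.20 with antibodies alone and 6.58, 6.96, 5.04, 5.20 and 5.88 with both. The mice with both treatments were below every mouse of these 2 groups (log2 difference -3.81 ± 0.53 SE, edgeR adjusted p = 3.02e-06), and hormone alone gave -3.28. Its paralogs make the assignment of reads uncertain. Ifi27 was lower by -1.37 (edgeR adjusted p = 0.000438).

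Collagen genes ended above control. With Jagged antibodies alone 2 of 18 were lower and none higher (median -0.55); with both treatments 13 were higher and 1 lower (median 0.96). With the offsets 7 were higher, and without control mice 2 and 4 only 5 were. They remained below the level that hormone gave in control antibody mice: 11 were lower and none higher in Jagged antibody mice under hormone (median -1.28). Progenitor and fibroblast genes were higher at 15 of 28 and lower at 1 (6 and 1 without the 2 control mice). Pdgfra, the receptor that marks adipocyte progenitors, was at 4.57, 3.90, 4.50, 3.30 and 4.16 log2 CPM in the controls and 6.09, 6.07, 5.68, 5.97 and 5.56 with both, with no overlap (log2 difference 1.74 ± 0.25 SE, edgeR adjusted p = 5.63e-06).

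Vascular smooth muscle genes were lower at 6 of 14 and higher at none (median -1.74), and lower at 4 without control mice 2 and 4. Tagln, an actin-binding contractile protein, was at 3.93, 3.50, 4.66, 5.84 and 2.95 log2 CPM in the controls and 1.70, 2.17, 1.64, 0.95 and 0.71 with both. Every treated mouse was below every control (log2 difference -3.05 ± 0.56 SE, edgeR adjusted p = 0.000133). Acta2, smooth muscle actin (-2.55), and Myl9, a myosin light chain (-1.98), also fell without overlap (edgeR adjusted p = 0.000333 and 0.000617). Endothelial genes were higher at 13 of 29 and lower at 5 (9 and 3 without control mice 2 and 4). Pecam1, the general endothelial adhesion molecule, was higher by 0.87 and Emcn, a sialomucin of capillaries and veins, lower by -0.92 (edgeR adjusted p = 0.0012 and 0.000355).

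Notch ligands, receptors and pathway components were higher at 13 of 22 and lower at none (median 0.62), and at 8 without control mice 2 and 4. Hormone alone raised 17 of them and Jagged antibodies alone none. Dll4, the arterial and tip-cell ligand, was at 3.58, 3.40, 4.05, 4.30 and 3.67 log2 CPM in the controls and 4.82, 4.34, 6.17, 5.14 and 5.13 with both treatments, each treated mouse above all controls (log2 difference 1.43 ± 0.29 SE, edgeR adjusted p = 0.000362). The receptors Notch2 (1.17) and Notch4 (1.49), the latter endothelial, rose without overlap (edgeR adjusted p = 0.00147 and 0.000278). Of the 2 blocked ligands, Jag1 mRNA was higher by 1.00 (edgeR adjusted p = 0.00153; 0.70 and not called without control mice 2 and 4), and Jag2 differed by 0.35 (95% interval -0.28 to 0.98). Among direct Notch targets, Hes1 (-0.34, -0.88 to 0.20), Hey1 (-0.51, -1.07 to 0.04) and Heyl (-0.43, -1.29 to 0.42) were not called. Over the target list 8 of 19 were higher and 2 lower (4 and 1 without control mice 2 and 4), among the latter Id1, a helix-loop-helix inhibitor that other pathways also induce (-1.65, edgeR adjusted p = 0.000645).

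Immediate early genes, which cells switch on within minutes of stimulation, were lower at 16 of 25 and higher at 1 (median -1.29), and lower at 15 and higher at none without control mice 2 and 4. Hormone alone lowered 14 and Jagged antibodies alone 3. Fosb, a partner of Jun, was at 8.08, 5.84, 3.51, 5.35 and 5.90 log2 CPM in the controls and 2.21, -0.43, 3.02, 0.17 and -0.30 with both. The groups did not overlap, although each spanned over 3 log2 units (log2 difference -4.89 ± 1.08 SE, edgeR adjusted p = 0.000872). Nr4a1, an orphan nuclear receptor induced by adrenergic signals, was lower by -3.68 and Ier3, a survival protein, by -3.37 (edgeR adjusted p = 0.000289 and 3.8e-05), while Egr1 (-1.16, 95% interval -2.61 to 0.29) was not called. Hspa1a, an inducible Hsp70 with a near-identical copy, was lower by -3.22 (edgeR adjusted p = 0.0032).

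Fkbp5, a chaperone of the glucocorticoid receptor that glucocorticoids induce, had the largest rise among called genes with no overlap and a mean log2 CPM of at least 1. It was at 2.69, 1.40, 2.81, 2.40 and 3.39 log2 CPM in the controls, 6.65, 3.95, 3.95, 3.62 and 4.64 with antibodies alone and 7.60, 7.39, 7.62, 6.84 and 7.27 with both. These 3 groups were stacked without overlap between any pair, and the log2 difference with both treatments was 4.70 ± 0.67 SE (edgeR adjusted p = 4.91e-06). Mice with hormone alone, at 4.32 to 6.21, overlapped those with antibodies alone and were 2.61 above control (edgeR adjusted p = 0.00102). Antibodies under hormone gave 2.09 (not called). Zbtb16, a zinc finger factor induced by glucocorticoids, was higher by 3.45 ± 0.55 and Tsc22d3, the glucocorticoid-induced leucine zipper, by 1.34 ± 0.29 (edgeR adjusted p = 2.34e-05 and 0.000707). Hormone alone raised Zbtb16 by 2.29 (edgeR adjusted p = 0.000821), and antibodies under hormone gave 1.16 (not called). Tsc22d3 was also higher under hormone in Jagged than in control antibody mice (1.15, edgeR adjusted p = 0.0383). Over the list of glucocorticoid and metallothionein genes, 7 of 16 were higher and 1 lower (median 0.44), and 4 and none without control mice 2 and 4. Clock genes were higher at 8 of 19 and lower at 3, and 2 and 1 without these mice.

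Receptors for neurotrophic factors and the Sgk kinases were higher at 7 of 12 and lower at none (median 0.99), and at 5 without control mice 2 and 4. With the offsets 6 were higher and 3 lower (median 0.60). Gfra1, the receptor for GDNF, was at 1.52, 0.89, 1.14, -1.07 and 0.57 log2 CPM in the controls, 1.68, 0.46, 1.38, 2.42 and 1.44 with antibodies alone, 1.33, 1.64, 2.56, 1.44 and 1.93 with hormone alone and 4.91, 4.71, 4.43, 2.86 and 5.33 with both. Every mouse with both treatments was above every mouse of the other 3 groups, mouse 9 by the least. The log2 difference from control was 3.85 ± 0.45 SE (edgeR adjusted p = 2.56e-07), and from hormone alone 2.83 (edgeR adjusted p = 0.000168). Hormone alone raised Gfra1 by 1.03 (edgeR adjusted p = 0.0427), and antibodies alone gave 0.77 (not called). The antibody difference of Gfra1 changed by 2.06 with hormone, which was not called in the test of the interaction. Gfra2 (1.75), Lifr, the LIF receptor (1.78), and Cntfr, the CNTF receptor (2.19), were also higher (edgeR adjusted p = 0.000456, 1.69e-06 and 0.00236). Sgk2, a kinase related to Akt, was at -2.30, -1.16, 1.02, 2.10 and -1.58 in the controls and 3.78, 3.32, 3.75, 0.57 and 3.25 with both, with mouse 9 inside the control range (log2 difference 2.91, edgeR adjusted p = 0.00839).

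**Figure D5:**
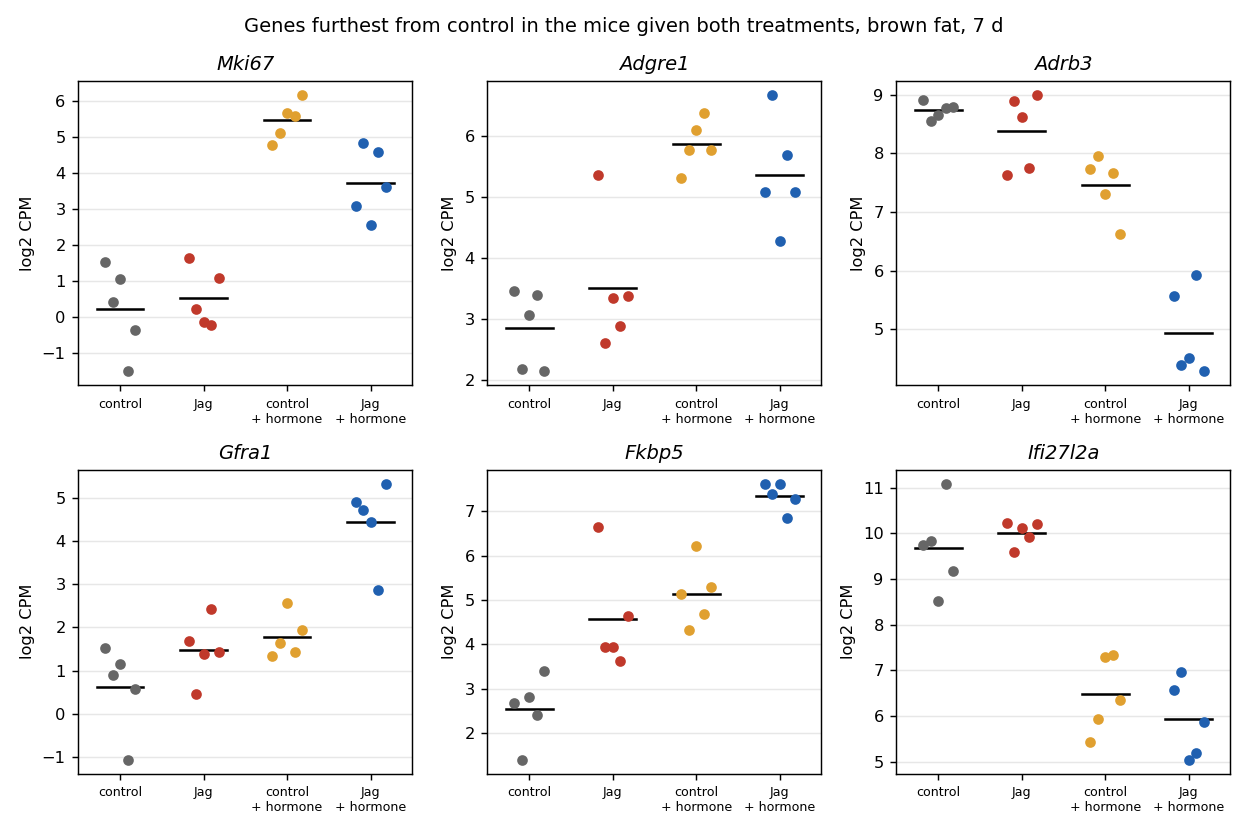
Expression (log2 CPM) of 6 genes in each of the 20 mice at 7 d; points are mice and black lines are group means. Mki67, Adgre1, Gfra1 and Fkbp5 are higher, and Adrb3 and Ifi27l2a lower, in mice with both treatments than in control mice, with no overlap.

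The remaining genes with the largest differences belong to no single group. Dusp15, a phosphatase, was higher by 4.21 ± 0.96 SE and Cyp2f2, a cytochrome P450 best known from airway cells, by 3.60 ± 0.82 (edgeR adjusted p = 0.00103 and 0.00104). Hebp2, a heme-binding protein, stood at 4.37, 5.00, 4.06, 5.44 and 4.27 log2 CPM in the controls, 1.88, 3.23, 3.46, 2.59 and 3.01 with antibodies alone and 1.12, 1.33, -0.68, 0.61 and 0.39 with both, each group below the last without overlap. Its difference was -4.09 ± 0.43 (edgeR adjusted p = 3.87e-08). Mice with hormone alone, at 1.49 to 2.60, overlapped those with antibodies alone, and antibodies under hormone gave -1.44 (not called). Ttc25 (-4.41) and Ropn1l (-3.28), known from cilia and sperm tails, and Gstp3 (-3.48), a glutathione transferase whose near-identical relatives make its reads uncertain, were lower without overlap (edgeR adjusted p = 6.27e-05, 7.77e-07 and 2.5e-06).

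The genes that Jagged antibodies changed at 5 d give a list from mice that are in none of the 7 d groups. They were 72 lower (0.422%) and 17 higher (0.0995%) of the 17079 genes. Of the 72 lower at 5 d, 48 were lower with both treatments at 7 d and 1 was higher, against 20.6% and 17.9% of all genes tested. In this list 8 lay within 1 log2 unit of control, against 36.1% of all genes. The median was -1.53 with both treatments and -1.245 with antibodies alone. With antibodies alone at 7 d, 23 of the 72 were lower, against 1.29% of all genes. With both treatments, 41 were lower when control mice 2 and 4 were left out, against 8.88% of all genes. Of the 17 higher at 5 d, 10 were higher with both treatments and none lower (17.9% higher over all genes). Without the 2 control mice 9 were higher (7.01% over all genes). Acaca and Slc25a1 for lipogenesis, Sqle and Nsdhl for cholesterol, Rgs5, Ndufa4l2 and Vtn for pericytes, and Pkm for glycolysis were lower at both times. Igfbp3, Ivns1abp, Cntfr and Sgk2 were higher at both.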

How the data were processed

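The deposited table of raw counts per gene was made by the authors from single libraries of 40 mice, and they also deposited FPKM, which is counts scaled to gene length and library size. GSNAP and limma are named in the submitters' processing notes without versions. The counting program, genome build and strand setting are not given in the sources used here. All columns of per-sample values were used.

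Counts were tested with edgeR 4.0.16 (R 4.3.3): TMM factors, a filter on low counts over the 8 groups, and the quasi-likelihood F test with 1 mean per group in all 40 mice, so that all groups share 1 estimate of spread. Benjamini-Hochberg adjusted p-values under 0.05 over 17079 genes were called. The labels name separate mice per group; p-values measure the spread between them. Log2 CPM used a prior count of 2. Gene symbols and lengths (GENCODE M21, GRCm38) matched 52403 of 52636 genes. Alternatives included length and GC offsets, size factors, DESeq2 1.42.0, limma 3.58.1 on log2(FPKM + 1), no filter, fewer mice in the fit, a covariate for muscle content (8 muscle genes, averaged on the log2 CPM scale), and leaving out each mouse.

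Genes named were those with the largest changes among called genes without overlap between groups and a mean log2 CPM of at least 1 (12 per direction for both treatments against control, 6 per direction for Jagged antibodies alone), the 8 back near control and 6 per direction not back, as defined in the text, and members of the gene lists. Members and lists were chosen with earlier results of these data known. Tested on simulated data for the comparison of both treatments with control (17079 genes), the test recovered 37% of 100 genes changed 2-fold and 85% of 100 changed 4-fold; 3 unchanged genes were called (2.4% of calls), and 95.34% of intervals held the true value. The simulated counts had no trend with gene length or GC content, and only genes with a mean log2 CPM above 1 were changed. In the data 38.5% of genes were called and the length slopes did not overlap, so these rates need not hold there. Promoter sequences are from RefSeq, GRCm38.p6. Tables were processed with Python 3.11.15, pandas 2.3.3 and scipy 1.17.1. Some genes that meet these rules are not reported here.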

Additional observations from a re-analysis of the deposited data

Results flagged for a closer look

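Within a group of 5 mice, a mouse was marked where its gap to the nearest mouse exceeded 0.71 of the group's range (Dixon's 95% value). Among the 123 named genes in the 2 groups compared, 11 of 246 gene and group pairs were marked; chance marks about 1 in 20 groups. In the control group, mouse 4 was low for Elovl5 (6.82 log2 CPM, gap 0.776 of the range), Klf9 (4.61, 0.827) and Thrb (4.04, 0.731). Mouse 1 was high for Dusp15 (1.86, 0.766) and low for Eva1a (1.62, 0.832). In the group with both treatments, mouse 9 was low for Dusp15 (1.91, 0.734) and Sgk2 (0.57, 0.835). Mouse 10 was low for Elovl3 (2.86, 0.730) and high for Ndn (5.73, 0.802) and Thra (6.58, 0.768). Mouse 8 was high for Hes1 (3.97, 0.713).

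Eva1a was the gene whose antibody difference changed with hormone. Jagged against control antibody was -0.75 without hormone (edgeR adjusted p = 0.125, not called) and 1.39 with hormone (edgeR adjusted p = 0.00529). The change between these was 2.14 ± 0.39 SE on the log2 scale (edgeR adjusted p = 0.0494), and the difference of both treatments from control was 0.15 (edgeR adjusted p = 0.679).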

How the results depend on the processing

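The comparison of both treatments with control called 6582 genes, and 2815 without control mice 2 and 4; with any single mouse left out the range was 5057 to 6841. The other alternatives gave 5639 to 7219. Hormone among Jagged antibody mice called 1622 genes: 990 with no filter, 2782 with only the 10 mice compared, 2544 with the 20 mice at 7 d, and 1048 to 1912 leaving out 1 mouse. Jagged antibodies without hormone called 427: 191 with no filter, 53 with only the 10 mice compared, 679 with the 20 mice at 7 d, 871 with DESeq2, 72 without control mice 2 and 4, and 144 to 848 leaving out 1 mouse. Genes within 1 log2 unit of control numbered 6169: 1248 with a margin of 0.5, and 5477 to 6624 leaving out 1 mouse. Higher calls outnumbered lower ones for hormone among Jagged antibody mice with RLE size factors (778 against 769), no filter (512 and 478), the 20 mice at 7 d (1304 and 1240), limma (717 and 502) and the replicate block (1332 and 1193, or 1346 and 1230 with the offsets), and for Jagged antibodies alone with the offsets (287 and 264) and without control mouse 3 or Jagged antibody mice 7, 8 or 10; with all mice and no offsets lower calls outnumbered higher ones in both. In the comparison of both treatments with control, lower calls were more numerous under each alternative run, and 2 genes were called in opposite directions with and without the offsets.

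No paired analysis was possible for both treatments against control because the groups share no number. Among Jagged antibody mice with and without hormone, same-numbered mice did not pair: 3 of 5 correlations exceeded 0.1, and 1 mouse correlated best with its own number. A replicate block on the number gave 2525 calls, and 2576 when combined with offsets for length and GC content.

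Leaving out single mice added calls to some named genes: Ppargc1a without control mouse 2 (1.15), Thrb without control mouse 1 (0.90), and Col3a1 without treated mouse 8 (1.00) or control mouse 1 (1.04). The shallowest of the 10 libraries held 12217623 counts, and 5 mice per group limit what a 2-fold change can show.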

Other observations

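Secreted factors of adipocytes were lower at 6 of 20 and higher at 2 in mice with both treatments (4 and 1 without control mice 2 and 4). Rbp4, the retinol carrier, was at 7.32, 7.55, 6.07, 7.30 and 6.91 log2 CPM in the controls and 4.72, 3.97, 4.63, 4.38 and 3.64 with both, every treated mouse below every control (log2 difference -2.79 ± 0.39 SE, edgeR adjusted p = 3.02e-06). Angptl8, an insulin-induced inhibitor of lipoprotein lipase, was lower by -2.97 (edgeR adjusted p = 0.000224), also without overlap. Adiponectin (Adipoq) was lower by -0.98 (edgeR adjusted p = 0.00234), a call lost with the length and GC offsets (-0.29) and without control mice 2 and 4 (-0.78).

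For the other gene lists the counts called higher and lower follow, against 17.9% higher and 20.6% lower over all genes tested. Fatty acid uptake genes had 3 and 4 of 19 (3 and 7 with the length and GC offsets), creatine cycle genes 2 and 1 of 7, adipogenic factors 4 and 4 of 18, stress response genes 0 and 4 of 21, and liver-type and xenobiotic genes 4 and 5 of 25. Neutrophil and monocyte genes had 5 and 0 of 17 (2 and 0 without control mice 2 and 4), MHC class II genes 2 and 0 of 11, Schwann cell and nerve genes 1 and 1 of 9, mast cell genes 0 and 1 of 8, and white adipocyte genes 2 and 0 of 8. Erythroid and platelet genes were lower at 3 of 9, and none was called with the offsets or without control mice 2 and 4. Skeletal muscle genes were not called at any of 20 by edgeR despite a median log2 difference of -2.68, with a muscle score spread of -1.31 to 11.1 among the controls and -0.82 to 8.78 with both treatments; with that score as a covariate 3 were lower.

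Treated mouse 9 was nearest the control level of the 5 mice for Slc7a8, Cyp2b10, Gfra1, Fasn, Acaca, Acly, Slc2a5 and Sgk2, genes that rose and genes that fell; this pattern was seen in the values and was not tested.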
